A study of Mus musculus with 6 samples.

Results

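The collagen chain genes comprised every protein-coding gene whose GENCODE M21 symbol consists of Col, a type number, the letter a and a chain number. The rule found 44 genes among the 21603 genes listed in each sample. By the usual division of the family, 11 code for chains of fibrillar collagens, 8 for chains of basement membrane collagens, 9 for fibril-associated collagens (FACIT) and 16 for other collagens, namely the microfibrillar, anchoring, network-forming and transmembrane types. RNA was taken from lungs of C57BL/6 mice at postnatal day (P) 8, with 3 control and 3 Yap1,Wwtr1 iPCKO mice. All 6 carried the Pdgfrb(BAC)-CreERT2 transgene and the RiboTag allele of Rpl22 and received tamoxifen from P0 to P2. In controls, Yap1 and Wwtr1 each had 1 loxP-flanked and 1 wild-type copy (labelled Yap1+/-;Wwtr1+/-), whereas both copies of each gene were loxP-flanked in iPCKO mice (labelled Yap1-/-;Wwtr1-/-). Yap1 codes for YAP1 and Wwtr1 for TAZ, related co-activators of TEAD transcription factors. In RiboTag mice Cre recombination leads to HA-tagged RPL22, a ribosomal protein, and anti-HA immunoprecipitation then recovers ribosome-bound RNA of cells in which the Pdgfrb-driven Cre was active. Since the controls were Cre-positive heterozygotes, the comparison was between a single intact copy and no intact copy of each gene.

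Collagens are triple helices of α chains, and many types assemble from chains of different genes. Fibrillar types I, III and V form the fibres of the interstitium, type IV builds the network of basement membranes, FACIT collagens sit on the surface of fibrils, and type VI forms beaded microfibrils close to basement membranes. Pericytes lie within the basement membrane that they share with capillary endothelium, and in the postnatal lung matrix is deposited while the alveoli are being divided.

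Values are RPKM, in which read numbers are divided by exon length and by library size, so that levels of different genes are compared per length. The depth implied by the steps between low RPKM values ranged from 17.41 to 34.67 M reads in controls and from 14.24 to 39.58 M in iPCKO samples. All 8 pericyte markers on the list were well expressed, with Pdgfrb at 1193 to 1666 RPKM. By limma, 3 passed as higher and 2 as lower in iPCKO samples (adjusted p under 0.01, log2 fold change beyond 0.5 either way). Of all genes tested, 4.11% and 2.68% did so. Higd1b, Kcnj8, Abcc9 and Cspg4 were higher without overlap between groups, and Cox4i2, Rgs5 and Notch3 lower (background 18.3% and 17.1%). Pdgfrb alone overlapped. Cspg4 had means of 81.8 and 170 RPKM in controls and iPCKO samples, and Notch3 means of 313 and 163 RPKM, so that the overlap of the list's mean log2 level covers differences in both directions. Fibroblast markers were present in both groups (Pdgfra, 29.8 to 45.8 RPKM) and 0 of 8 passed the test (limma; 3 had an unadjusted p below 0.05). Of these markers, Tcf21 was lower without overlap, with means of 52.6 and 35.9 RPKM in controls and iPCKO samples. Gpc3 was higher without overlap (means of 43.4 and 62.1 RPKM), and the rest overlapped. Of 7 cartilage markers 5 stayed under 1 RPKM in every sample and none was tested. The others, Sox9 and Acan, were low but higher in iPCKO samples without overlap. Sox9 had 0.245, 0.458 and 0.362 RPKM in controls and 0.857, 1.47 and 1.19 RPKM in iPCKO samples. Acan had 0.124, 0.281 and 0.114 against 0.629, 1.13 and 1.14 RPKM. At the same thresholds (limma), 3 of 8 myofibroblast and smooth muscle markers and 6 of 8 leukocyte markers were higher in iPCKO samples. So were 5 of 8 neutrophil markers and 4 of 6 platelet markers, against 4.11% of all genes tested. Every neutrophil marker was higher without overlap between groups, as were all leukocyte markers but Lcp1 and all platelet markers but Gp1bb (background 18.3%). Summed neutrophil markers ran from 85.9 to 127 RPKM in controls and from 443 to 4881 RPKM in iPCKO samples. Yap1 had 13.2, 11.5 and 12.4 RPKM in controls 1 to 3 and 5.76, 5.83 and 5.25 RPKM in iPCKO samples 1 to 3 (log2 fold change -1.12, adjusted p = 0.000175, limma). Wwtr1 had 71.3, 53.8 and 56.1 against 63.5, 60.3 and 62.2 RPKM, which overlapped, and a single value per gene cannot separate recombined from intact exons. The Y-linked gene Ddx3y was at 17.2 and 19.7 RPKM in controls 1 and 3 and listed at 0 in control 2 and in all 3 iPCKO samples, so that control 2 alone matched the iPCKO samples in this respect.

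In RNA recovered from iPCKO lungs, the α1 to α3 chains of type VI collagen and the minor chains of type IV were higher. Col18a1, Col5a3, Col12a1, Col23a1 and Col7a1 were also higher, and Col8a1 and Col6a4 were lower. The most abundant collagen transcripts, those of types I, III and IV α1 and α2, did not pass the test. Of the 44 genes, 30 reached 1 RPKM in at least 3 samples and were tested. With the thresholds set at 0.01 for the adjusted p and at 0.5 for the absolute log2 fold change (limma), 12 were higher and 2 were lower, against a background of 4.11% higher and 2.68% lower among the 12034 genes tested. The median log2 fold change of the 30 genes was 0.48, and it was within 0.01 of 0 over all genes tested. By class, 1 of 8 tested fibrillar genes, 5 of 8 basement membrane genes, 1 of 4 FACIT genes and 7 of 10 other collagen genes passed. All 3 iPCKO values lay above all 3 control values for 16 of the 30 (background 18.3%) and below them for 2 (background 17.1%). Col5a3 and Col8a1 would not have been tested without the samples of the group in which they were higher. Fewer cells of a type and less RNA per cell cannot be told apart in such samples.

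Among the 14 genes that passed, 7 passed whichever sample was left out, namely Col5a3, Col4a6, Col18a1, Col6a1, Col6a3, Col8a1 and Col23a1. The set of tested genes was held fixed in these fits. Col8a1 reached 1 RPKM in the controls alone and would have missed the filter with any control left out. The number that passed was 8 without control 1, 12 without control 2, 7 without control 3, 14 without iPCKO 1, 9 without iPCKO 2 and 8 without iPCKO 3. In 11 of the 12 higher genes iPCKO 1 was the lowest of the iPCKO samples, and in 9 of the 12 iPCKO 2 was the highest. Neutrophil markers were also lowest in iPCKO 1, with mean log2 levels of 4.33, 6.13 and 7.42 in iPCKO 1 to 3, and the values of Col6a1, Col6a2 and Col4a4 had this same order. Fibroblast markers had 4.81, 5.11 and 4.95. With the Y-linked transcripts as a term in the fit, all 14 kept their direction with 0.765 to 1.18 times the log2 fold change, and 2 passed, Col6a3 (adjusted p = 0.00581, limma) and Col8a1 (adjusted p = 0.00693). The log2 fold change of this fit is the iPCKO mean less control 2, as in the fit against control 2 alone. The groups did not overlap for any of the 14, so control 2 lay outside the iPCKO range and the direction was fixed in advance. The part of these markers and of the Y-linked split in the collagen differences was not tested.

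**Figure D1:**
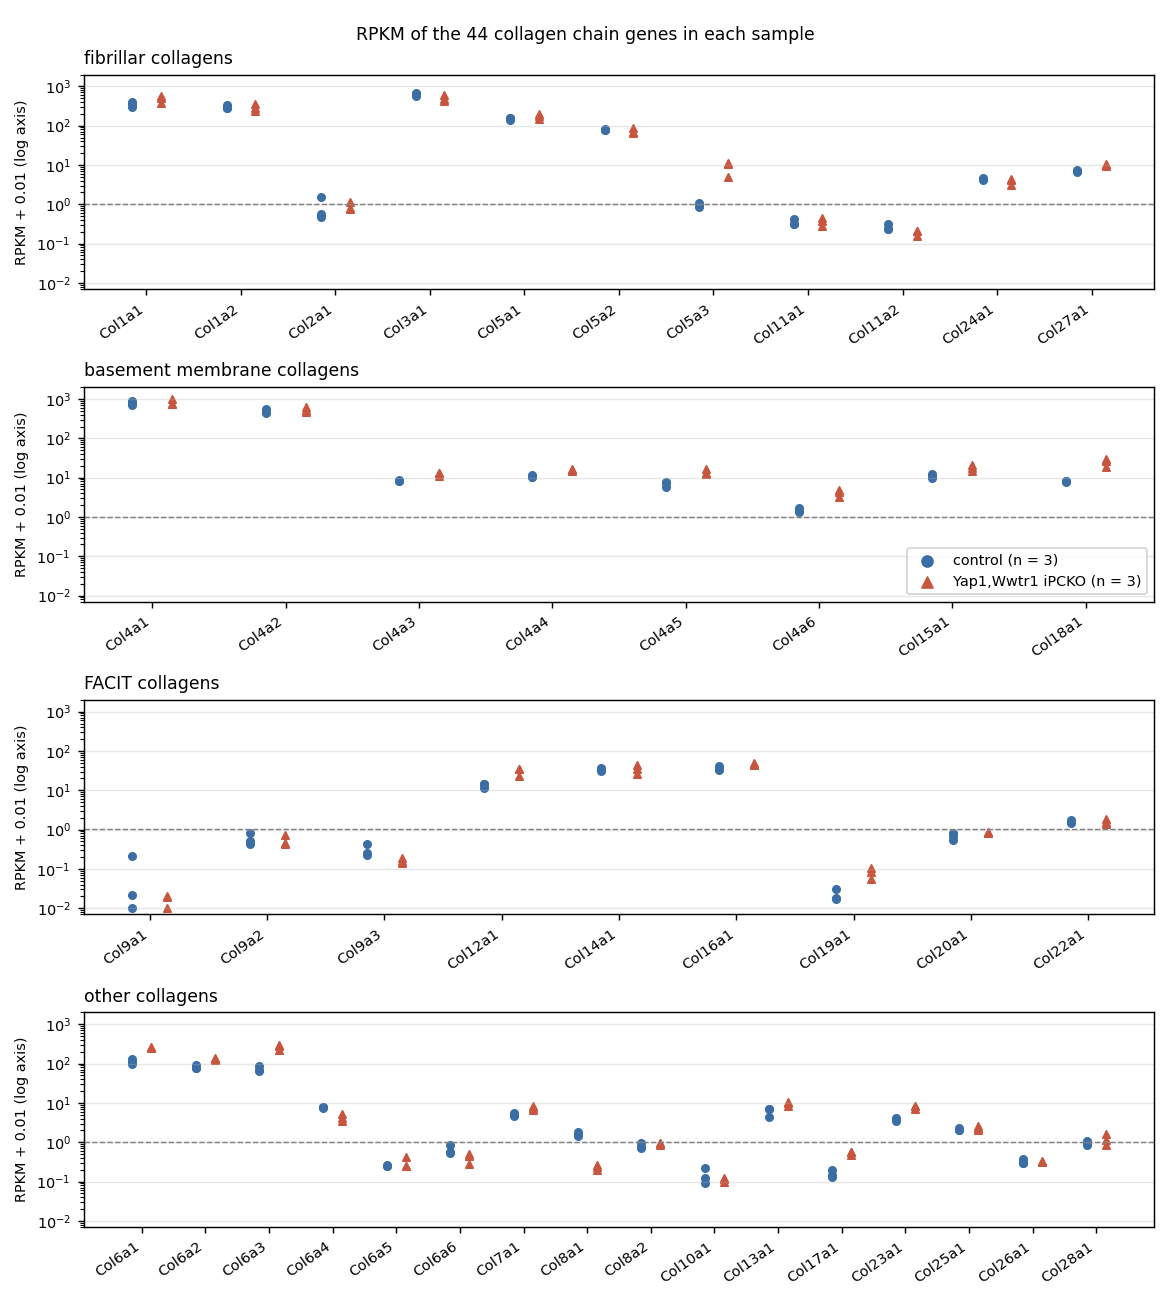
RPKM of each of the 44 collagen chain genes (log axis, 0.01 added) in 3 control samples (circles) and 3 Yap1,Wwtr1 iPCKO samples (triangles), by class, with a dashed line at 1 RPKM. Col4a1 and Col3a1 lie near the top in both groups with overlapping points, whereas the points of Col6a3, Col18a1, Col5a3 and Col8a1 are apart.

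Among types I, III, IV, V and VI, the difference in summed RPKM was largest for type VI. Its classical form is a heterotrimer of the α1, α2 and α3 chains, and all 3 genes were higher in iPCKO samples. Col6a3, which codes for the long α3 chain (ENSMUSG00000048126, chromosome 1 of GRCm38, 90765923 to 90843971), had 68.5, 86.4 and 63.3 RPKM in controls and 220, 292 and 275 RPKM in iPCKO samples. The lowest iPCKO sample was above the highest control, and the means were 72.7 ± 12.2 and 262 ± 38.0 RPKM (SD, n = 3 each), a log2 fold change of 1.85 ± 0.15 (SE; adjusted p = 0.000168, limma). Col6a1 (chromosome 10, 76708792 to 76726168) had 108, 130 and 97.1 RPKM in controls and 245, 251 and 264 RPKM in iPCKO samples and a log2 fold change of 1.19 ± 0.12 (adjusted p = 0.00051, limma). Col6a2, on the same chromosome at 76595762 to 76623630, had 79.6, 91.1 and 75.5 RPKM against 121, 133 and 135 RPKM, a log2 fold change of 0.66 ± 0.10 (adjusted p = 0.00396, limma). The groups did not overlap for any of the 3 genes, but the sizes differed, with 3.61-fold for Col6a3, 2.27-fold for Col6a1 and 1.58-fold for Col6a2. Col6a2 did not pass without control 1, control 3, iPCKO 2 or iPCKO 3 (adjusted p 0.0141, 0.0241, 0.0212 and 0.0191, limma). With the Y-linked term the adjusted p was 0.0162 for Col6a1 and 0.116 for Col6a2.

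Summed over α1 to α3, type VI transcripts amounted to 256, 307 and 236 RPKM in controls and 585, 676 and 674 RPKM in iPCKO samples. They made up 7.53%, 9.31% and 7.88% of all collagen RPKM in controls and 17.6%, 15.4% and 18.3% in iPCKO samples, so that their share of the collagen transcripts was higher in every iPCKO sample. The alternative chains α4 to α6, which can take the place of α3 in the trimer, summed to 8.63, 8.49 and 8.84 RPKM in controls and to 3.91, 5.97 and 5.09 RPKM in iPCKO samples. Col6a4 (chromosome 9, 105989454 to 106096783) had 7.82, 7.40 and 8.10 RPKM in controls and 3.39, 5.29 and 4.19 RPKM in iPCKO samples. Its groups did not overlap, the log2 fold change was -0.86 ± 0.15 (adjusted p = 0.00638, limma), and it did not pass without control 1, 2 or 3 or without iPCKO 3 (adjusted p 0.0242, 0.0189, 0.0306 and 0.0233). Col6a5 and Col6a6, which lie next to Col6a4 in the same direction with 28810 and 27917 bases between neighbours, stayed below 1 RPKM and were not tested. Col6a6 had 0.563, 0.851 and 0.508 RPKM in controls and 0.278, 0.442 and 0.497 RPKM in iPCKO samples, without overlap, while Col6a5 ranged from 0.236 to 0.401 RPKM over all samples.

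The sequences upstream of the type VI genes that differed are given here because the 3 chains form a single protein and differed in the same direction. They are reference sequences of RefSeq on GRCm38.p6, up to 250 bases 5′ of the annotated first exon, written 5′ to 3′ on the gene's strand, which is the minus strand for all 3. Capitals mark matches to the GC box, GGGCGG, or to the CCAAT box, each as written or as its reverse complement. The Col6a1 run lies at chr10:76726169-76726294, that of Col6a2 at chr10:76623631-76623880 and that of Col6a3 at chr1:90843972-90844221.
Col6a1: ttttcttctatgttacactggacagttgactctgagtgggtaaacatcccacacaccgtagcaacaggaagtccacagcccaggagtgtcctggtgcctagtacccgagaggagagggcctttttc
Col6a2: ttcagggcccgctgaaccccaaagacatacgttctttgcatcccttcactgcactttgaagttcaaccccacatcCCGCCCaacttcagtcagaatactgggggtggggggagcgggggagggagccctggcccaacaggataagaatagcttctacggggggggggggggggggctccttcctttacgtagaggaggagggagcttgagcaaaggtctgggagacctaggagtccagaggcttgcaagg
Col6a3: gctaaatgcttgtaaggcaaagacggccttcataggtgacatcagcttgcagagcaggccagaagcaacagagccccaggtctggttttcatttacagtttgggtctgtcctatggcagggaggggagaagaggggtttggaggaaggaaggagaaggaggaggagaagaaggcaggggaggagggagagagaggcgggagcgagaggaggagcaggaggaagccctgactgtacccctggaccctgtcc
The Col6a2 run holds a GC box, and neither of the others holds any of the motifs searched. GGAATG, the core of sites bound by TEAD factors, was searched on both strands in windows of 250 bases before to 50 bases after each start. It was present in 5 of the 38 windows that matched 35 of the 44 collagen genes (those of Col3a1, Col20a1, Col6a2, Col18a1 and Col4a6) and in 14.7% of all 32851 windows. CCAAT was found in 13 of the 38 collagen windows against 37.4% of all windows, GGGCGG in 23 against 35.7% and TATAAA in 5 against 13.6%. These are matches of letters and not mapped sites.

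Basement membrane collagens fell into an abundant pair that overlapped between groups and 6 less abundant genes that did not. Col4a1 and Col4a2, the chains of the common type IV network, had the highest levels of the class. Col4a1 ranked 12 among all genes by its control mean and had 901, 711 and 772 RPKM in controls and 759, 986 and 745 RPKM in iPCKO samples (log2 fold change 0.06 ± 0.17, adjusted p = 0.853, limma). Col4a2 had 569, 442 and 462 against 519, 614 and 475 RPKM, and its log2 fold change of 0.13 ± 0.15 (adjusted p = 0.628) became -0.08 under quantile normalization. Both genes start head-to-head on chromosome 8, where their first exons share 22 bases, and in both the iPCKO 2 sample was highest.

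The minor type IV chains α3, α4, α5 and α6 replace the common network in specialised basement membranes, such as that of the kidney glomerulus, and are coded by 2 further head-to-head gene pairs. All 4 were higher in iPCKO samples, and their summed RPKM was 25.8, 29.4 and 27.0 in controls and 41.4, 50.3 and 47.0 in iPCKO samples. Col4a6 (chromosome X, 141165403 to 141474076) had 1.30, 1.63 and 1.42 RPKM in controls and 3.22, 4.80 and 4.26 RPKM in iPCKO samples, a log2 fold change of 1.42 ± 0.17 (adjusted p = 0.000995, limma). Its neighbour Col4a5, 1308 bases away, had 5.94, 7.90 and 7.13 RPKM against 12.3, 16.4 and 13.3 RPKM, a log2 fold change of 0.99 ± 0.14 (adjusted p = 0.00215, limma), and without control 3 its adjusted p was 0.0106. Neither gene of the X-linked pair overlapped between groups, and the iPCKO means were 2.82 and 2 times those of controls. Col4a3 had 8.496, 8.40 and 8.02 RPKM in controls and 11.1, 13.2 and 13.2 RPKM in iPCKO samples (log2 fold change 0.58 ± 0.10, adjusted p = 0.00505, limma). Its partner Col4a4 on chromosome 1 had 10.1, 11.4 and 10.4 against 14.7, 15.97 and 16.2 RPKM (log2 fold change 0.55 ± 0.09, adjusted p = 0.00413, limma). Groups did not overlap for either gene of this pair, and the sizes were close to each other, 1.51-fold and 1.47-fold. Summed alveolar epithelial markers were at 489 to 540 RPKM in controls and 620 to 676 RPKM in iPCKO samples. The part of epithelial RNA in the type IV values was not tested. Col4a3 did not pass without control 1, 2 or 3, iPCKO 2 or iPCKO 3, and Col4a4 did not pass without control 1, control 3, iPCKO 2 or iPCKO 3, with adjusted p-values up to 0.0285 and 0.0247. With the Y-linked term the adjusted p-values were 0.0328 for Col4a6, 0.0656 for Col4a5, 0.1 for Col4a3 and 0.123 for Col4a4. An unnamed transcript on the opposite strand, C430014B12Rik, covers 5.65% of the exonic bases of Col4a3, and the strand setting of the counting is not given in the sources used here.

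The stretches from which these pairs are transcribed in opposite directions are shown because both members of each pair differed in the same direction. The 71 bases at chr1:82586850-82586920 are the whole gap between the first exons of Col4a4 and Col4a3, read here on the minus strand, that of Col4a4. The Col4a5 run at chrX:141475169-141475384 is on the plus strand and the Col4a6 run at chrX:141474077-141474326 on the minus strand, with capitals as above.
Col4a4 to Col4a3 gap: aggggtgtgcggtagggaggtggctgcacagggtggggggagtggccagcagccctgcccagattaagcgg
Col4a5: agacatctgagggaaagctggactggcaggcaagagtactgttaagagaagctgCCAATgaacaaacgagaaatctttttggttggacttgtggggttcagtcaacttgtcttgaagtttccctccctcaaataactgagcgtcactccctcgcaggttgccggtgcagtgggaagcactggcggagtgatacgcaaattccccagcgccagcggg
Col4a6: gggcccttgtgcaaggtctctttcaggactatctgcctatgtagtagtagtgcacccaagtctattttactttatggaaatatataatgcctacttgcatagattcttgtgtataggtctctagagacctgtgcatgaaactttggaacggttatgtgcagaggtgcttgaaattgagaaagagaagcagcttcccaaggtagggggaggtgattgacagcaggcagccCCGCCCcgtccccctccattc
The gap holds none of the motifs searched, the Col4a5 run holds a CCAAT and the Col4a6 run a GC box near its 3′ end.

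Col18a1 and Col15a1 code for the basement membrane collagens with heparan or chondroitin sulfate chains whose cleaved C-terminal ends are endostatin and a related fragment. Col18a1 (chromosome 10, 77052178 to 77166548) had 7.80, 8.09 and 8.00 RPKM in controls and 19.0, 30.5 and 26.2 RPKM in iPCKO samples. The controls were within 0.3 RPKM of each other and every iPCKO sample was more than 10 RPKM above them. The means were 7.96 ± 0.14 and 25.2 ± 5.82 RPKM (SD, n = 3 each) and the log2 fold change 1.63 ± 0.16 (adjusted p = 0.000354, limma), and 1.60 with the Y-linked term (adjusted p = 0.0122). Col15a1 had 10.3, 12.6 and 9.55 RPKM in controls and 15.2, 18.0 and 20.9 RPKM in iPCKO samples. Its groups did not overlap, but the adjusted p of 0.0103 (limma) missed the threshold at a log2 fold change of 0.73 ± 0.14. It was 0.00974 without control 2 and 0.00449 without iPCKO 1.

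**Figure D2:**
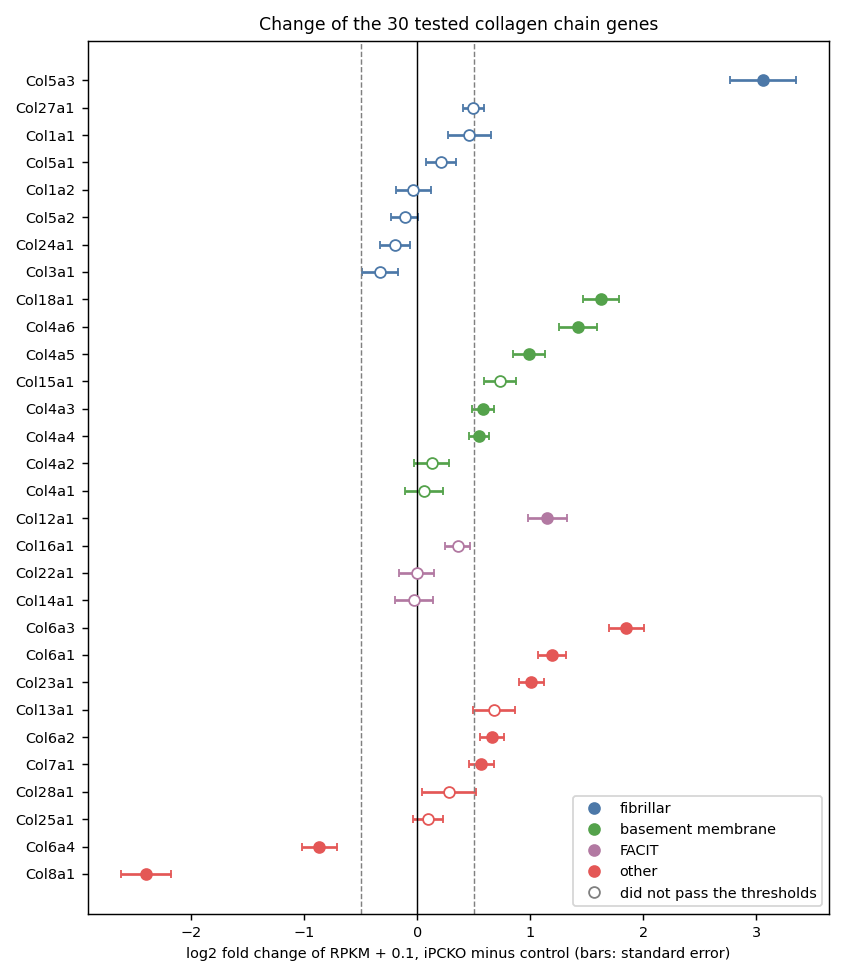
Difference of mean log2(RPKM + 0.1), iPCKO minus control, for the 30 tested collagen genes (points; bars are standard errors; n = 3 per group), with filled points for genes past both thresholds and dashed lines at a log2 fold change of 0.5 in either direction. Col5a3 is farthest to the right at 3.06 and Col8a1 farthest to the left at -2.39, and 7 of the 8 tested fibrillar genes have open points.

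Of the 8 tested fibrillar genes Col5a3 alone passed, and the most abundant ones did not. Col3a1, the single chain of type III collagen, had 631, 693 and 573 RPKM in controls and 429, 612 and 482 RPKM in iPCKO samples (log2 fold change -0.33 ± 0.16, adjusted p = 0.217, limma). Col1a1 had 347, 397 and 294 against 367, 582 and 494 RPKM (log2 fold change 0.46 ± 0.19, adjusted p = 0.146), and Col1a2 had 278, 329 and 275 against 240, 347 and 281 RPKM (log2 fold change -0.03 ± 0.16, adjusted p = 0.916). The groups overlapped for all 3 genes of the major interstitial fibres. Col5a1 and Col5a2, whose type V heterotrimer is buried in type I fibrils and limits their width, also overlapped, with log2 fold changes of 0.21 ± 0.14 (adjusted p = 0.342) and -0.11 ± 0.12 (adjusted p = 0.578).

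Col5a3, the third chain of type V collagen (ENSMUSG00000004098, chromosome 9, 20770050 to 20815067), differed from the rest of its class. It had 0.835, 1.09 and 0.893 RPKM in controls and 4.95, 11.5 and 10.7 RPKM in iPCKO samples. Every iPCKO sample was above 4 RPKM and every control below 1.1 RPKM, and the log2 fold change of 3.06 ± 0.29 was the largest of the collagen genes (adjusted p = 0.000334, limma). With the Y-linked term it was 2.86 (adjusted p = 0.0124). The level remained low next to that of Col5a1 (150 ± 11.6 RPKM in controls and 175 ± 28.1 RPKM in iPCKO samples), so that the sum over the 3 type V genes overlapped between groups. The bases before the Col5a3 start, at chr9:20815068-20815317 on the minus strand, are shown as those of the gene with the largest fold change, with capitals as above.
Col5a3: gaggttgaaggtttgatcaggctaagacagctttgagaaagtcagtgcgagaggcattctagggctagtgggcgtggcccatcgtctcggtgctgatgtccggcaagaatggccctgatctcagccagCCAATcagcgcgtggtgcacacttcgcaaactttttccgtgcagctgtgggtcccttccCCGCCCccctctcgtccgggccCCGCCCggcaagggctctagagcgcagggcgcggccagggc
The run holds a CCAAT and a pair of GC boxes. Col27a1, a fibrillar collagen of developing cartilage and other tissues, had 6.64, 7.58 and 6.87 RPKM in controls and 9.56, 10.3 and 9.998 RPKM in iPCKO samples. The groups did not overlap and the adjusted p was 0.00732 (limma), but the log2 fold change of 0.497 was under the threshold. Col24a1 had a log2 fold change of -0.20 ± 0.13 (adjusted p = 0.355).

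Among the FACIT collagens, Col12a1 alone passed. Type XII collagen, a homotrimer on the surface of type I fibrils, is encoded on chromosome 9 at 79598991 to 79718831. Its gene had 14.6, 14.2 and 11.6 RPKM in controls and 22.5, 34.4 and 34.3 RPKM in iPCKO samples, and the groups did not overlap. The log2 fold change was 1.15 ± 0.17 (adjusted p = 0.003, limma), and without control 1, control 3, iPCKO 2 or iPCKO 3 the adjusted p was 0.0109, 0.0146, 0.0137 or 0.0127. Col14a1, the closest relative in the class, was at 35.2, 37.9 and 31.6 RPKM in controls and 26.2, 43.0 and 35.5 RPKM in iPCKO samples (log2 fold change -0.03 ± 0.17, adjusted p = 0.938). The most abundant gene of the class, Col16a1, had 41.2, 34.2 and 32.5 against 44.5, 49.7 and 43.96 RPKM, without overlap but with an adjusted p of 0.0625 (log2 fold change 0.36 ± 0.11). Col22a1, a collagen of tissue junctions, overlapped between groups at 1.40 to 1.90 RPKM.

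Type VIII collagen, a short-chain collagen of vessel walls and of the cornea, had the lower gene with the largest fold change. Col8a1 (ENSMUSG00000068196, chromosome 16, 57624258 to 57754737) had 1.45, 1.84 and 1.56 RPKM in controls and 0.259, 0.227 and 0.192 RPKM in iPCKO samples. All iPCKO samples were well under the lowest control, with means of 1.62 ± 0.20 and 0.226 ± 0.033 RPKM (SD, n = 3 each) and a log2 fold change of -2.39 ± 0.22 (adjusted p = 0.000297, limma). On the RPKM scale the control mean was 7.15 times that of the iPCKO samples. Its sister chain Col8a2 overlapped between groups (0.713 to 0.971 RPKM) and was not tested. The bases before the Col8a1 start, at chr16:57754738-57754987 on the minus strand, hold several GC boxes and are shown as those of the gene with the largest decrease.
Col8a1: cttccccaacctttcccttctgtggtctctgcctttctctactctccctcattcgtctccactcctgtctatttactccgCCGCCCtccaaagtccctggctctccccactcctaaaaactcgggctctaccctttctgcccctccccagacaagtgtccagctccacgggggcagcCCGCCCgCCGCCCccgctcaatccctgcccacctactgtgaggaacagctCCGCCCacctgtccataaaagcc

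Among transmembrane and anchoring collagens, Col23a1 and Col7a1 passed. Col23a1, a transmembrane collagen that is shed from the cell surface (chromosome 11, 51289920 to 51583918), had 4.02, 3.93 and 3.50 RPKM in controls and 6.85, 8.36 and 8.21 RPKM in iPCKO samples (log2 fold change 1.01 ± 0.11, adjusted p = 0.000709, limma). Col13a1, the transmembrane collagen of cell-matrix contacts, had 4.30, 6.999 and 7.01 against 8.59, 10.3 and 10.1 RPKM. It did not overlap, but the spread of the controls was wide and the adjusted p was 0.0406 (log2 fold change 0.68 ± 0.18). Col7a1, which forms anchoring fibrils beneath epithelia, had 5.42, 4.64 and 4.92 RPKM in controls and 7.33, 8.27 and 6.79 RPKM in iPCKO samples, a log2 fold change of 0.57 ± 0.11 (adjusted p = 0.00933, limma). This was the call closest to the threshold, since Col7a1 did not pass with any of the 6 samples left out (adjusted p 0.0129, 0.0402 and 0.0426 without controls 1, 2 and 3, and 0.0184, 0.0451 and 0.0142 without iPCKO 1, 2 and 3). Col25a1 and Col28a1 overlapped between groups, with log2 fold changes of 0.10 ± 0.13 and 0.28 ± 0.24.

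The 14 genes that were not tested ranged from 0 to 1.53 RPKM in any sample. They include the cartilage collagens Col2a1, Col9a1, Col9a2, Col9a3, Col10a1, Col11a1 and Col11a2 and, in addition, Col19a1, Col20a1, Col6a5, Col6a6, Col8a2, Col17a1 and Col26a1. Groups overlapped for 9 of them, and 2 were higher and 3 lower without overlap. Among the tested genes, all of which passed the filter that these 14 did not, such separation was seen for 18.3% and 17.1%. No share was obtained for genes below the filter, so these counts cannot be said to set the 14 genes apart. Col17a1, the transmembrane collagen of epithelial hemidesmosomes, was at 0.123, 0.189 and 0.140 RPKM in controls and at 0.475, 0.565 and 0.548 RPKM in iPCKO samples. It was the sole untested gene to pass when no filter was applied (log2 fold change 1.33, adjusted p = 0.00405, limma). Of 8 alveolar epithelial markers 2 passed, both higher. The sum of the 8, in which Sftpc is the largest term, was 489 to 540 RPKM in controls and 620 to 676 RPKM in iPCKO samples. Cdh1, Ager, Sftpa1, Sftpc, Sftpb and Hopx were higher without overlap, whereas Aqp5 (means of 14.2 and 12.2 RPKM) and Epcam overlapped. The part of epithelial RNA in the Col17a1 and Col7a1 values was not tested. Col19a1 was the other gene higher without overlap, at 0.00737 to 0.0209 against 0.0440 to 0.0960 RPKM. Lower without overlap were Col9a3 (0.211 to 0.432 against 0.135 to 0.177 RPKM), Col11a2 (0.223 to 0.311 against 0.148 to 0.195 RPKM) and Col6a6. A single read per 1 kb of exon amounts to 0.0253 RPKM in the deepest and 0.0702 RPKM in the shallowest sample, so values below about 0.1 RPKM rest on few reads.

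Summed by class, the fibrillar collagens came to 1507, 1670 and 1369 RPKM in controls and to 1264, 1856 and 1533 RPKM in iPCKO samples. The groups overlapped with a log2 difference of 0.02 ± 0.18 (SE; exact permutation test, two-sided, p = 0.9), which leaves room for changes of either sign. Basement membrane collagens summed to 1514, 1203 and 1279 against 1353, 1699 and 1315 RPKM, a log2 difference of 0.13 ± 0.15 (exact p = 0.5). FACIT collagens had 94.1, 89.9 and 78.9 RPKM in controls and 96.3, 131 and 117 RPKM in iPCKO samples, and the other collagens had 284, 338 and 266 against 617, 714 and 710 RPKM. These last classes did not overlap, with log2 differences of 0.38 ± 0.15 and 1.20 ± 0.12, each at the smallest p that 3 against 3 samples allow (exact p = 0.1, adjusted p = 0.25 over the 5 totals). The sum of all collagen genes was 3399, 3301 and 2993 RPKM in controls and 3331, 4400 and 3674 RPKM in iPCKO samples, which overlapped (log2 difference 0.23 ± 0.13, exact p = 0.2). It amounted to 1.34%, 1.38% and 1.24% of all RPKM in controls and 1.26%, 1.73% and 1.47% in iPCKO samples. In the class of other collagens, the type VI α1 to α3 genes accounted for 266 of the 296 RPKM of the control mean. They accounted for 645 of the 681 RPKM of the iPCKO mean, so that most of the difference between the means lay in these genes.

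**Figure D3:**
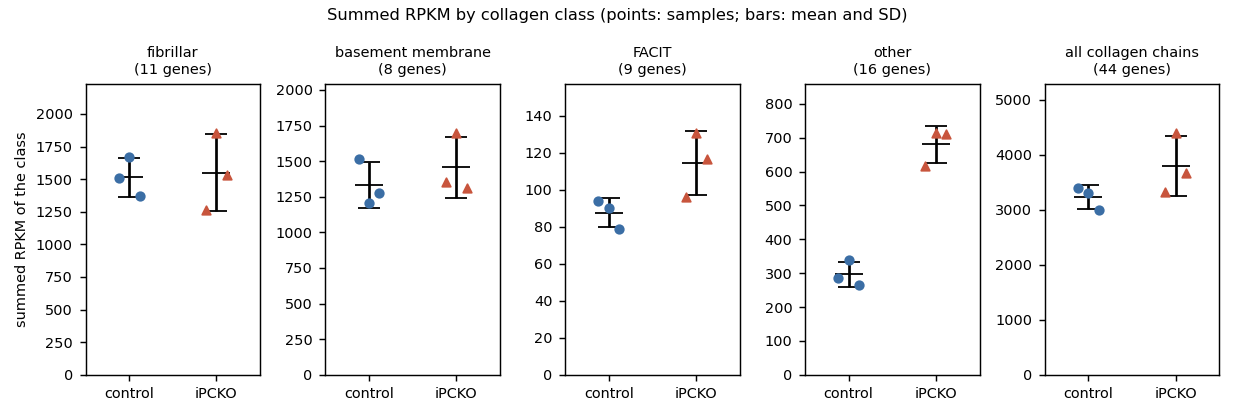
Summed RPKM of each collagen class and of all 44 collagen genes in each sample (points), with the mean and SD of 3 samples per group (bars). The class of other collagens is apart, at 266 to 338 RPKM in controls and 617 to 714 RPKM in iPCKO samples, while the fibrillar and basement membrane totals overlap.

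Ratios of chains within a sample do not depend on that sample's depth. Of 13 planned pairs, 5 were left out because a chain was under 1 RPKM in a sample, and 6 of the 8 tested did not overlap between groups. Over single genes tested, 18.3% were higher and 17.1% lower without overlap, and no such share was obtained for pairs of other genes. The type VI ratios and Col4a5 over Col4a6 are built from genes that passed singly, so the count alone says little. Each of the 6 ratios without overlap had the smallest exact p possible, 0.1 (adjusted p = 0.133 over the 8 ratios, two-sided). Col1a1 exceeded Col1a2 by 1.25, 1.21 and 1.07 times in controls and by 1.53, 1.67 and 1.75 times in iPCKO samples, a log2 difference of 0.49 ± 0.09. The ratio of Col3a1 to Col1a1 was 1.82, 1.75 and 1.95 in controls and 1.17, 1.05 and 0.976 in iPCKO samples, a log2 difference of -0.79 ± 0.09. Thus the relative amounts of the interstitial chains were separated between groups although the level of no single chain of types I and III was. Within type VI, Col6a1 over Col6a2 was 1.36, 1.43 and 1.29 in controls and 2.03, 1.89 and 1.95 in iPCKO samples, and Col6a3 over Col6a1 was 0.635, 0.665 and 0.651 against 0.897, 1.16 and 1.04. Col5a1 over Col5a2 was 2.04, 1.89 and 1.81 in controls and 2.29, 2.36 and 2.52 in iPCKO samples. Col6a3 was below Col6a2 in every control and above it in every iPCKO sample, whereas against Col6a1 it was below in every control and in iPCKO 1 and above in iPCKO 2 and 3. Of the head-to-head pairs, Col4a5 over Col4a6 was lower in iPCKO samples (4.56, 4.84 and 5.02 against 3.82, 3.41 and 3.13), whereas Col4a1 over Col4a2 (exact p = 0.2) and Col4a3 over Col4a4 (exact p = 0.8) overlapped, with log2 differences of -0.07 ± 0.05 and 0.03 ± 0.07.

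**Figure D4:**
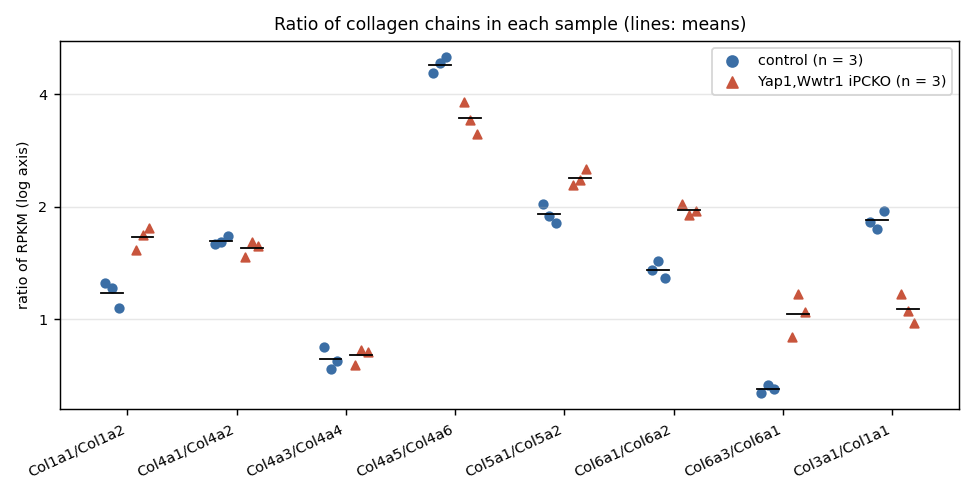
Ratio of the RPKM of 2 collagen chains in each sample (log axis), for 3 controls (circles), 3 iPCKO samples (triangles) and their means (lines). The points of Col4a1/Col4a2 and Col4a3/Col4a4 overlap, and those of the other 6 ratios do not.

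Genes that make, cut and bind collagen were read from a list of 51, of which 44 were tested, 5 were higher and 3 lower in iPCKO samples (18.2% of those tested against a background of 6.79%). Among enzymes and chaperones of collagen folding, 2 of 17 passed. P3h2, a prolyl 3-hydroxylase that acts on basement membrane collagen, had 5.56, 6.29 and 6.51 RPKM in controls and 24.6, 30.4 and 22.9 RPKM in iPCKO samples (log2 fold change 2.06 ± 0.12, adjusted p = 3.33e-05, limma), and it passed with the Y-linked term (adjusted p = 0.00195). Plod1, a lysyl hydroxylase, had 10.6, 11.1 and 10.7 against 17.5, 18.8 and 18.7 RPKM (log2 fold change 0.76 ± 0.08, adjusted p = 0.000513, limma). The collagen chaperone gene Serpinh1 overlapped at 577 to 716 RPKM, and 0 of the 4 secretion genes passed (limma; 1 had an unadjusted p below 0.05).

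In propeptide processing 4 of 6 tested genes passed, 2 in each direction. The N-propeptidase genes Adamts14 (2.80, 3.06 and 2.42 against 5.71, 6.46 and 7.13 RPKM) and Adamts3 (4.33, 3.87 and 4.66 against 8.41, 7.03 and 7.61 RPKM) were higher, with log2 fold changes of 1.19 ± 0.13 (adjusted p = 0.000572, limma) and 0.83 ± 0.11 (adjusted p = 0.0017). Pcolce, an enhancer of C-propeptide cleavage, had 53.0, 62.6 and 61.5 RPKM in controls and 23.1, 24.1 and 25.6 RPKM in iPCKO samples (log2 fold change -1.28 ± 0.10, adjusted p = 0.000105, limma, and 0.00331 with the Y-linked term). Its relative Pcolce2 was lower as well (8.86, 7.85 and 7.16 against 5.03, 4.99 and 3.69 RPKM, log2 fold change -0.80 ± 0.14, adjusted p = 0.00693), although among fits without a sample it passed without iPCKO 1 alone (adjusted p up to 0.0253). Bmp1, the C-propeptidase that both enhance, had a log2 fold change of -0.05 (adjusted p = 0.773), and Adamts2 one of -0.21 (adjusted p = 0.228).

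Of the 4 tested cross-linking enzymes 0 passed, and Lox, the sole one with an unadjusted p below 0.05, had 20.3, 24.5 and 19.7 RPKM against 9.06, 14.8 and 13.4 RPKM without overlap (log2 fold change -0.81 ± 0.18, adjusted p = 0.0167, limma). Of the 8 tested receptors, Itga1, the α subunit of the α1β1 integrin that binds type IV collagen, was lower, at 284, 265 and 311 RPKM in controls and 145, 150 and 137 RPKM in iPCKO samples (log2 fold change -0.99 ± 0.11, adjusted p = 0.000572, limma). Ddr2, a receptor kinase for fibrillar collagen, had 47.8 to 49.4 RPKM in controls and 43.7 to 47.3 RPKM in iPCKO samples, without overlap but with an adjusted p of 0.48. Among the proteases Mmp9 was higher, from 0.645, 0.924 and 0.749 RPKM to 3.19, 12.9 and 28.4 RPKM (log2 fold change 3.62 ± 0.64, adjusted p = 0.00641, limma), and when samples were left out in turn it passed without iPCKO 1 alone (adjusted p up to 0.0293). Like Col5a3, it would not have been tested without the samples of the group in which it was higher. Mmp8 followed the same order (0.517 to 1.01 against 2.48, 13.9 and 39.3 RPKM, adjusted p = 0.0148). Both are proteases of neutrophils, whose markers rose in the same sample order, and the part of such cells was not tested. Mmp2 and Mmp14, proteases of mesenchymal cells, had log2 fold changes of -0.01 and 0.12 (adjusted p = 0.977 and 0.477).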

How the data were processed

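Ribosome-associated RNA of 3 control and 3 Yap1,Wwtr1 iPCKO lungs was sequenced as stranded total RNA. The authors aligned the read pairs with TopHat to GRCm38 (mm10), obtained gene counts with HTSeq 0.6.1 and deposited RPKM per Ensembl gene. The exon length used is not given in the sources used here, and RPKM no longer carries the read number behind a value. Symbols, coordinates and collagen members came from GENCODE M21. Collagen members, classes and marker lists were chosen with earlier results of these data known.

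All genes with at least 1 RPKM in at least 3 samples (12034) were fitted as log2(RPKM + 0.1) with limma 3.58.1 (lmFit, eBayes with an intensity trend) in R 4.3.3, with Benjamini-Hochberg adjustment over all of them. The thresholds were 0.01 for the adjusted p and 0.5 for the absolute log2 fold change. Fold changes on this scale understate changes of low genes. Class totals and chain ratios were compared by two-sided exact permutation tests. On simulated data for this comparison, 200 of 12034 genes were changed. The fit recovered 77.5% of genes changed by 0.6, 97.5% of those changed by 1 and 99% of those changed by 2 (log2). False calls numbered 0, 1 and 0. The simulated noise was independent between genes, with a spread set by level alone. It held no Y-linked split and no varying cell mixture, so these figures hold for that setting alone. Depth was read from whole-read steps in low values of genes annotated with 1 transcript, of which 75.3% to 77.1% lay within 0.02 reads of a whole number, and was not used to recover counts. Genes described are those past the thresholds, the 3 most abundant of each class, genes without overlap between groups, and pathway genes past the thresholds. Naming the other genes was decided after their values were seen. Alternatives were other pseudocounts, filters, thresholds and scalings, no intensity trend, a replicate block and each sample left out, the last with the same genes tested. A Y-linked term and a comparison with control 2 alone were added after seeing the data. Col21a1 was not analysed here. Python 3.11.15 with pandas 2.3.3, scipy 1.17.1 and matplotlib 3.10.9 was used for the remaining steps.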

Additional observations from a re-analysis of the deposited data

How the results depend on the processing

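Of 14 collagen genes (12 higher, 2 lower), 8 pathway genes (5 and 3) and 817 genes in all (495 and 322), the numbers past the thresholds were as follows. Collagen genes numbered 12 to 15 under other pseudocounts, filters and scalings, without the intensity trend and with the replicate block, and 16 at an adjusted p below 0.05. The lower ones numbered 1 without a filter, with 1 RPKM required in all 6 samples and without the trend. At an absolute log2 fold change above 1, 8 collagen genes (7 higher, 1 lower), 4 pathway genes (3 and 1) and 411 genes (276 and 135) passed, and at an adjusted p below 0.05 there were 1313 genes (802 and 511). Leaving out a sample gave 7 to 14 collagen genes (6 to 12 higher, 1 to 2 lower), 6 to 9 pathway genes and 382 to 899 genes (222 to 558 higher, 160 to 341 lower). With the Y-linked term 2 collagen genes (1 higher, 1 lower), 2 pathway genes (1 and 1) and 124 genes (64 and 60) passed, and against control 2 alone 0 collagen genes (0 and 0), 0 pathway genes (0 and 0) and 31 genes (17 and 14), in fits with fewer residual samples and, for control 2 alone, with its spread taken from the iPCKO samples (limma; 18 of 30 collagen and 13 of 44 pathway genes at an unadjusted p below 0.05).

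Of 537 values of single collagen genes under the alternatives, 449 kept direction and side of the threshold, 68 no longer passed, 7 newly passed and 13 changed sign, all of the latter in genes that did not pass. These were Col4a2 under quantile normalization (-0.0754), Col22a1 without control 1 or 3 or iPCKO 1 or 3 (0.0407, 0.00175, 0.012 and 0.0885), against control 2 alone and with the Y-linked term (0.101 each), Col14a1 and Col1a2 without control 2 (0.0339 and 0.0505) or iPCKO 1 (0.165 and 0.0947), and Col4a1 without control 2 or iPCKO 2 (-0.0185 and -0.0721). Over all fits without a sample Col14a1 ranged from -0.193 to 0.165, Col1a2 from -0.173 to 0.0947, Col4a1 from -0.0721 to 0.152 and Col22a1 from -0.117 to 0.0885. The fibrillar total changed sign without control 3 or iPCKO 2, over a range of -0.12 to 0.16 when a sample was left out, and the ratio of Col4a3 to Col4a4 without control 2, over a range of -0.0148 to 0.084. The cause was not tested.

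Deviations of samples with the same replicate number correlated at 0.238, 0.092 and 0.022. Those of control and iPCKO samples with different numbers correlated at -0.298 to 0.273, and such few values do not settle whether the numbers mark pairs. With the replicate block 15 collagen genes, 11 pathway genes and 922 genes passed, Col15a1 and Col13a1 newly (adjusted p = 0.00902 and 0.00827, limma) and Col7a1 no longer (0.0147). Values under about 0.1 RPKM are limited by depth.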
